A study of Mus musculus with 24 samples.

Results

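Satellite cells sorted from mouse tibialis anterior muscle 8 days after injury were compared with satellite cells sorted from uninjured muscle. The comparison was chosen by sample title and holds 6 of the 24 arrays of the series, 3 titled day 8 and 3 titled day 0. The muscle had been injured with cardiotoxin, a snake venom toxin that lyses muscle fibres, and day 0 muscle had received no injury. Cells were freed by mincing and enzyme digestion and sorted by flow cytometry as negative for CD45, Sca1 and CD31, positive or low for CD34, and positive for alpha7 integrin. The 3 satellite cell arrays of day 4, and the 6 endothelial cell arrays of days 0 and 8, served as further points of reference. Endothelial cells came from the same kind of muscle and were sorted as CD45 negative and positive for Sca1, CD34 and CD31. The labels call the replicates biological and give no strain, sex, age or number of animals per array. Separate cell type and time point fields of the labels disagreed with the titles and were not used.

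Satellite cells are the stem cells of skeletal muscle. They lie between the muscle fibre and its basement membrane, rest outside the cell cycle in uninjured muscle, and are marked by the transcription factor Pax7. After injury they enter the cell cycle and become myoblasts under Myf5 and Myod1. They then leave the cycle, switch on the transcription factor myogenin, fuse into multinucleated fibres and build sarcomeres, first with embryonic and then with adult isoforms. A part of the cells returns to rest. Cells that have begun to differentiate, cells that divide and cells that return to rest can all be present in a sort of day 8, and bulk arrays give their average.

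Levels are log2 values per array after the authors' normalization, on arrays that differ little in scale. The medians of the 24 arrays lie between 4.11 and 4.40, so a level near 4 is close to the lower limit of what these arrays resolve, and with 3 arrays a group the precision is set by their number. Pairs of arrays correlated across genes at 0.946 to 0.971 within day 0 and at 0.954 to 0.967 within day 8, against 0.917 to 0.942 between day 8 and day 0 and 0.905 to 0.922 between satellite and endothelial cells of day 8. Of 14064 genes tested with limma, 616 were higher on day 8 (4.38%) and 281 were lower (2%) at a Benjamini-Hochberg adjusted p under 0.05 and a log2 difference of at least 1. Only genes that pass both limits are said to rise or fall, differences are day 8 minus day 0 unless another day is named, and SE is the standard error of the fit. The median difference over all genes tested was -0.01, and 14.6% of them had all 3 day 8 arrays above all 3 day 0 arrays, with 11% the other way. In sorted bulk samples, more cells of a type and more RNA per cell cannot be told apart.

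The sort was checked against its markers. Itga7, which encodes the alpha7 integrin, was at 7.66, 8.77 and 8.64 on the day 0 arrays and 8.40, 8.70 and 8.29 on the day 8 arrays. Cd34 was at 9.44, 9.31 and 9.26 and then 8.87, 9.96 and 9.12. Neither passed the test (0.11, SE 0.28 and -0.02, SE 0.37). Pax7 was present on every array, at 9.80, 8.76 and 9.28 before injury and 8.86, 7.40 and 8.13 on day 8, a lower mean that did not pass (-1.15, SE 0.37, adjusted p = 0.06) except on leaving out day 0 replicate 2 or day 8 replicate 1 (lowest adjusted p = 0.0177). Pecam1, which encodes the CD31 that the sort excluded, was at 8.21, 7.72 and 7.19 on day 0 and 9.10, 9.99 and 9.56 on day 8, a rise (1.84, SE 0.38, adjusted p = 0.0028). Ptprc, which encodes CD45, was at 3.13, 2.97 and 2.81 and 4.90, 3.41 and 5.86, which did not pass (1.76, SE 0.79, adjusted p = 0.191).

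Markers of other cells moved with the day and differed between the replicates of day 8. Of 25 leukocyte markers tested, 15 rose and 0 fell (median 2.31), with 9 on leaving out day 8 replicate 1. The list averaged 4.23, 3.64 and 3.95 on the day 0 arrays and 6.79, 5.39 and 6.65 on the day 8 arrays, and 22 of the 25 markers were lowest on replicate 2 among the day 8 arrays. The macrophage and antigen presentation genes Ctss (5.39, SE 0.62, adjusted p = 6.56e-06), Ms4a7 (4.32, SE 0.75) and H2-Aa (4.23, SE 0.94) led, while the neutrophil genes S100a8 (2.30, 2.20 and 2.05 and then 2.38, 2.57 and 2.19) and S100a9 (3.43, 3.26 and 3.54 and then 3.68, 3.49 and 3.00) were below the array median on all 6 arrays. Of 20 endothelial markers, 10 rose and 0 fell (median 1.54), with 6 on leaving out day 8 replicate 3. They averaged 5.97, 5.87 and 5.71 on day 0 and 6.53, 7.55 and 7.41 on day 8, against 9.68, 9.64 and 9.64 in the endothelial sort of day 8, and 17 of the 20 were lowest on day 8 replicate 1.

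Mural cell markers had lower means on day 8. All 14 pericyte and smooth muscle markers were lower (median -1.18), and 3 fell: the calponin gene Cnn1 (-1.99, SE 0.55, adjusted p = 0.0251), the potassium channel gene Kcnj8 (-1.79, SE 0.50, adjusted p = 0.0276) and the transgelin gene Tagln (-1.43, SE 0.29, adjusted p = 0.00307). Leaving out day 0 replicate 2, day 0 replicate 3 or day 8 replicate 3 left 1 of them called, and leaving out day 8 replicate 2 left 5. The list averaged 9.24, 10.08 and 10.08 before injury, 6.70, 6.81 and 6.84 on day 4 and 8.10, 9.18 and 8.69 on day 8, so these transcripts were abundant in the sort of uninjured muscle and replicate 1 was the lowest array on both days. Of 9 fibro-adipogenic markers 1 rose and 4 fell, with averages of 6.86, 6.96 and 6.88 and 6.30, 6.89 and 6.59, and 2 fell without day 0 replicate 3. Of 5 tendon cell markers only Tnmd, which encodes tenomodulin, rose (3.28, SE 0.49, adjusted p = 0.000141), from 3.73, 3.80 and 4.54 to 7.06, 7.78 and 7.07. Of 5 Schwann cell and 2 erythroid markers tested, limma called 0, with 2 and 0 at an unadjusted p under 0.05. The Schwann cell marker Sox10 had an adjusted p under 0.05 (-0.75, SE 0.17, adjusted p = 0.00659) without reaching the minimum difference. The part of these other cells in the results below was not tested.

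**Figure D1:**
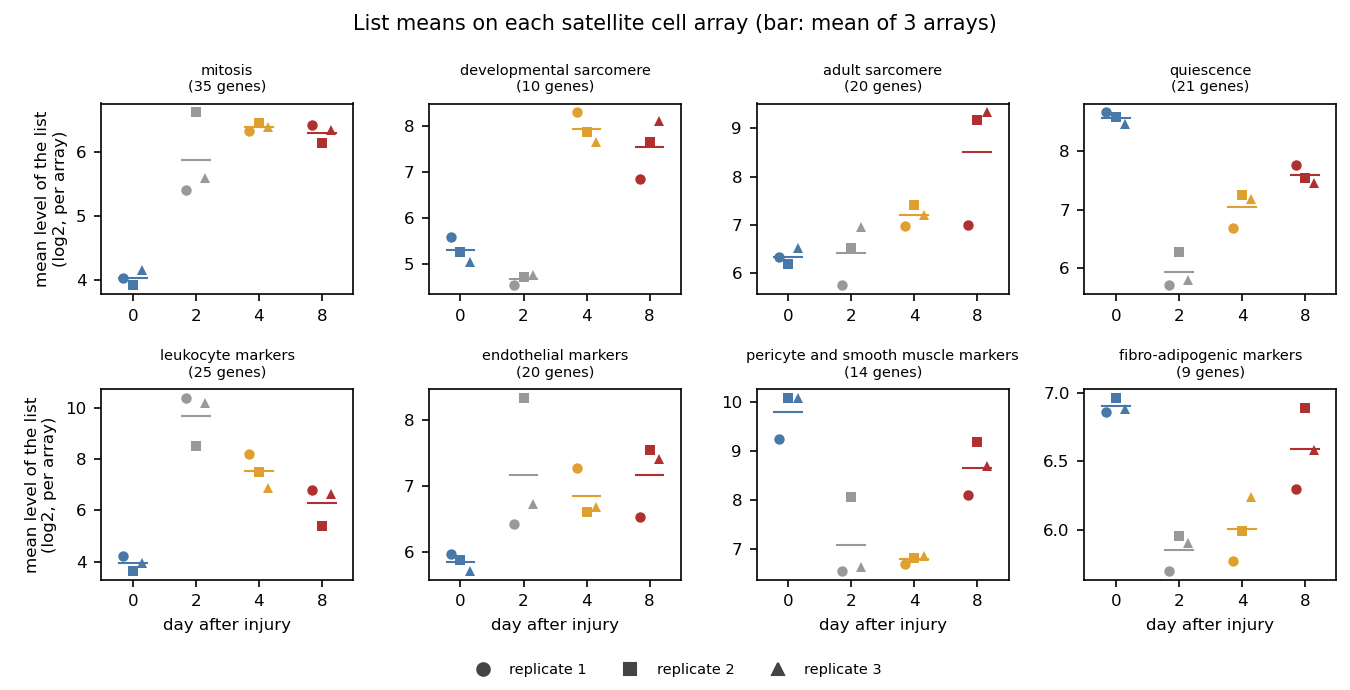
Mean log2 level of 8 gene lists (vertical axes, each with its own range) on every satellite cell array by day after injury (horizontal axes), with symbols for the replicates and bars for the mean of 3 arrays. Day 8 replicate 1 stands low in the adult sarcomere panel, at 7.00 against 9.18 and 9.34, and day 8 replicate 2 stands low in the leukocyte panel, at 5.39 against 6.79 and 6.65.

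Among the genes with the largest differences whose arrays did not overlap, muscle differentiation genes stood beside genes of macrophages and vessels on the rising side. The 10 largest rises were those of Ctss, Mymk, Myog, Actc1, Mfap4, Ms4a7, Tnnt2, Ctla2a, H2-Aa and Aplnr. Of these, Myog, Mymk, Actc1 and Tnnt2 belong to muscle differentiation and are described below. Mfap4, which encodes a protein of the elastic microfibril, went from 4.25, 4.40 and 4.08 to 9.22, 8.41 and 8.36 (4.42, SE 0.39, adjusted p = 2.64e-07). Aplnr, the apelin receptor gene, went from 4.41, 4.48 and 4.86 to 8.34, 9.02 and 8.96 (4.19, SE 0.49, adjusted p = 8.29e-06), and Ctla2a, which encodes a cathepsin inhibitor, from 2.07, 3.82 and 5.75 to 7.70, 8.53 and 8.14 (4.24, SE 0.62, adjusted p = 0.000117). Both were higher still in the endothelial sort of day 8, Aplnr at 10.95, 10.98 and 10.95 and Ctla2a at 9.36, 9.61 and 9.73. Day 0 arrays were spread widely for Ctla2a and closely for Aplnr, and no day 8 array overlapped them for either gene.

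The 10 largest falls were those of Clmn, Cldn1, Tnxb, Chrdl2, Ccl19, Igfbp6, Mir23a, Sfrp5, Tshr and Lypd2. Clmn, which encodes the transmembrane protein calmin, went from 7.82, 7.80 and 8.08 to 3.42, 2.76 and 2.38 (-5.04, SE 0.27, adjusted p = 2.29e-10). The tight junction gene Cldn1 went from 8.06, 7.46 and 7.63 to 3.15, 4.06 and 3.44 (-4.17, SE 0.23, adjusted p = 2.29e-10). On every day 8 array these 2 transcripts lay below the median of the arrays. Sfrp5, a secreted Wnt antagonist gene, went from 6.78, 6.35 and 5.53 to 2.90, 4.11 and 2.93 (-2.90, SE 0.34), Tshr, the thyrotropin receptor gene, from 6.28, 6.30 and 6.87 to 3.80, 3.87 and 3.55 (-2.74, SE 0.22), and Lypd2 from 7.06, 6.03 and 5.70 to 3.72, 3.42 and 3.43 (-2.74, SE 0.29). In endothelial cells Cldn1, Sfrp5, Tshr and Lypd2 were near or below the array median on both days, with Tshr at 2.97, 2.88 and 3.26 and then 3.52, 3.44 and 3.27. Cldn1, Tnxb, Sfrp5 and Tshr exceeded the array median only on the 3 day 0 satellite arrays and were tested through these alone. Their low levels on all other arrays were thus fixed by the filter, and their p-values are no separate support.

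**Figure D2:**
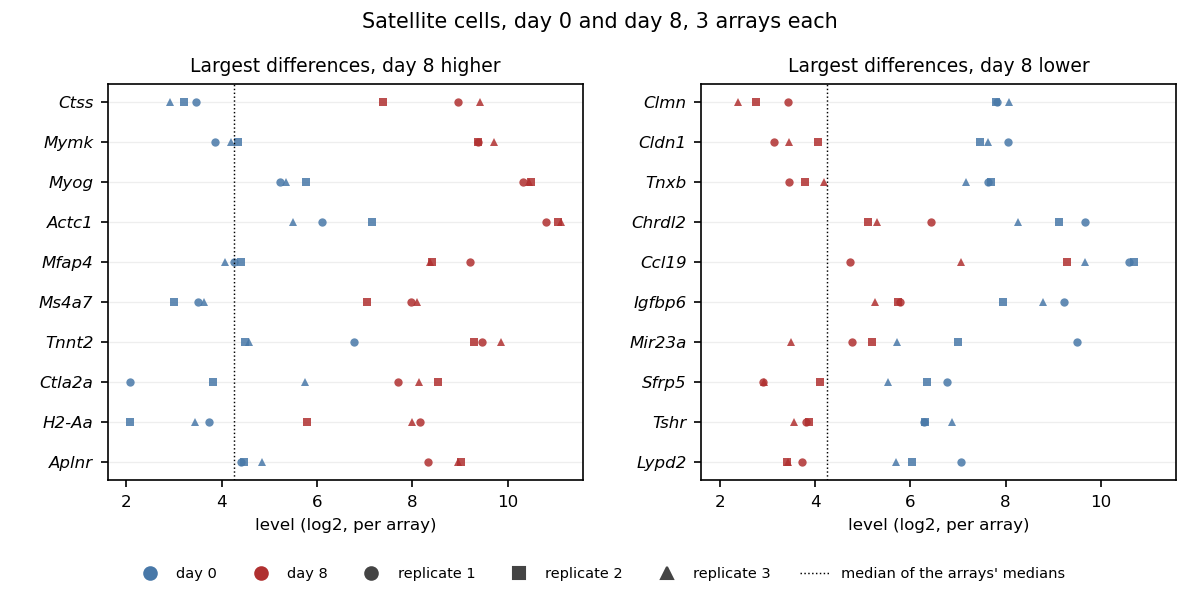
Log2 level per array (horizontal axes) of the 10 genes with the largest rise (left) and the 10 with the largest fall (right) in satellite cells, with blue symbols for the 3 day 0 arrays, red for the 3 day 8 arrays and a dotted line at the median of the arrays' medians. Genes were chosen for arrays that do not overlap, so the gaps show size and spread, and Ccl19 has the widest spread on day 8, from 4.74 to 9.29.

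Myogenic transcription factors were compared first. Myog, which encodes myogenin, the factor of terminal differentiation, was at 5.23, 5.76 and 5.35 on day 0 and 10.33, 10.50 and 10.44 on day 8. The day 8 arrays lay within 0.2 of each other and far above day 0, a 31.5-fold difference (4.98, SE 0.34, adjusted p = 7.08e-09). Rbm24, which encodes an RNA-binding splicing regulator of muscle, rose from 5.79, 6.11 and 6.30 to 7.87, 8.41 and 8.32 (2.13, SE 0.33, adjusted p = 0.000177). The muscle methyltransferase gene Smyd1 (1.12, SE 0.25, adjusted p = 0.00652) and Msc, which encodes the repressor musculin (1.31, SE 0.35, adjusted p = 0.0206), rose less. Smyd1 was not called without day 8 replicate 3 (adjusted p = 0.0575), nor Msc without any array but day 0 replicate 2 and day 8 replicate 3 (up to 0.0839). Of 15 factors tested these 4 rose and 0 fell, with a median of 0.61. Myf5 (9.17, 8.72 and 8.95 and then 9.36, 8.05 and 8.60) and Myod1 (7.52, 7.28 and 7.39 and then 8.24, 7.88 and 7.14), the factors of the committed myoblast, did not differ beyond their spread (-0.28, SE 0.38 and 0.36, SE 0.29). On day 8 the levels of Pax7, Myf5 and Eya1, a transcriptional coactivator gene (8.36, 7.67 and 7.99 and then 7.87, 7.02 and 6.43, -0.90, SE 0.29, adjusted p = 0.0571), were highest on replicate 1, and Eya1 was not called as lower except without day 0 replicate 2 or day 8 replicate 1.

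The promoter of Myog is shown because myogenic bHLH factors bind the E-box, a short motif of the letters CANNTG, and Myog had the largest rise among the factors. The 250 bases before its RefSeq start (GRCm38.p6, chr1:134289754-134290003, plus strand) are given 5′ to 3′ with E-boxes in capitals.
Myog: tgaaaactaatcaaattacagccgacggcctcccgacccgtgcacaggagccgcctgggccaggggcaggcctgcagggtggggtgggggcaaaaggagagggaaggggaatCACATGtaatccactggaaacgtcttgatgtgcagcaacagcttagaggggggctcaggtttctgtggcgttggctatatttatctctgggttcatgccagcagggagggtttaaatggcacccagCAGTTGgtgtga
The window holds 2 E-boxes, CACATG from 138 to 133 bases and CAGTTG from 12 to 7 bases before the start. Searched on both strands, 66.2% of all 32851 promoter windows of this length in the RefSeq table hold at least 1 E-box, and 7 of 16 windows of 11 myogenic factors do (43.8%). A match to these letters is a description of the sequence only, and no match was read as absence of a factor.

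Cell fusion genes divided into a pair that rose and a larger set that did not. Mymk, which encodes myomaker, the membrane protein required for myoblast fusion, went from 3.86, 4.35 and 4.21 to 9.37, 9.38 and 9.72 (5.35, SE 0.35, adjusted p = 4.02e-09). Mymx, which encodes its partner myomixer, went from 4.46, 4.29 and 4.37 to 6.39, 5.95 and 6.42 (1.88, SE 0.26, adjusted p = 5.71e-05). All day 8 arrays lay above all day 0 arrays for either gene, and no fold is given because the day 0 levels are at the array median. The other 12 tested genes of fusion and adhesion, among them the cadherin genes Cdh15 (0.16, SE 0.26) and Cdh2 (0.74, SE 0.30) and the tetraspanin genes Cd9 (0.18, SE 0.24) and Cd81 (-0.33, SE 0.26), were not called, and the list median was 0.17. The counts of 2 and 0 were the same on leaving out each of the 6 arrays.

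Sarcomere genes of the embryonic and early type rose in 7 of 10 cases, with 0 falls and a median of 2.17. Actc1, the cardiac actin gene that is also used in new muscle, went from 6.10, 7.15 and 5.50 to 10.81, 11.05 and 11.12, a 26.8-fold difference (4.75, SE 0.55, adjusted p = 7.69e-06). Tnnt2, the cardiac troponin T gene, went from 6.77, 4.50 and 4.58 to 9.46, 9.29 and 9.87 (4.26, SE 0.48, adjusted p = 6.56e-06). Day 0 replicate 1 was the highest of its group for Tnnt2 and was still 2 log2 units or more below every day 8 array. Tnni1, the slow troponin I gene, rose (2.89, SE 0.30), as did the light chain genes Myl1 (2.61, SE 0.47) and Myl4 (2.39, SE 0.46). Myh3, the embryonic myosin heavy chain gene, went from 2.81, 2.80 and 2.53 to 4.09, 4.04 and 5.86 (1.95, SE 0.45, adjusted p = 0.00755) and lost its call without day 8 replicate 3 (adjusted p = 0.0641). Of these 6 arrays only day 8 replicate 3 had Myh3 above the array median. Tnnt1 rose as well (1.14, SE 0.33, adjusted p = 0.0354), and its adjusted p passed 0.05 whichever of the 6 arrays was left out, up to 0.123.

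Adult sarcomere genes rose in 14 of 20 cases and fell in 0 (median 2.33), but the day 8 replicates were unlike each other. The list averaged 6.34, 6.19 and 6.52 on day 0 and 7.00, 9.18 and 9.34 on day 8, and 18 of the 20 genes were lowest on replicate 1. Mybpc2, the fast myosin-binding protein C gene, was at 3.06, 3.22 and 3.68 on day 0 and 4.41, 8.11 and 8.30 on day 8 (3.62, SE 0.68, adjusted p = 0.0014). Pvalb, which encodes the calcium buffer parvalbumin of fast fibres, was at 7.32, 7.59 and 8.12 and then 8.14, 11.89 and 11.93 (2.98, SE 0.83, adjusted p = 0.0254), and Ckm, the muscle creatine kinase gene, at 7.45, 6.95 and 7.45 and then 7.81, 10.48 and 10.70 (2.38, SE 0.52, adjusted p = 0.00491). For these 3 genes day 8 replicate 1 was nearer to day 0 than to replicates 2 and 3, which lay more than 2 log2 units above it. Pvalb was not called without day 0 replicate 1 or 2 or day 8 replicate 2 or 3 (adjusted p up to 0.141). Leaving out day 8 replicate 1 raised the count from 14 to 18, leaving out day 8 replicate 2 or 3 lowered it to 10, and a fit of the 6 arrays alone gave 7.

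The giant sarcomere genes were more even across replicates. Neb, which encodes nebulin of the thin filament, went from 5.19, 4.66 and 4.65 to 7.19, 8.19 and 8.47 (3.11, SE 0.28, adjusted p = 3.02e-07), and Ttn, which encodes titin, from 4.60, 4.62 and 4.64 to 6.67, 7.48 and 7.82 (2.70, SE 0.30, adjusted p = 5.95e-06). Mybpc1, the slow myosin-binding protein C gene, went from 6.47, 6.12 and 6.31 to 7.77, 7.61 and 7.93 (1.47, SE 0.33, adjusted p = 0.00624). Among the adult myosin heavy chain genes, Myh4 (6.45, 5.51 and 6.20 and then 5.56, 8.87 and 8.69) and Myh1 (5.24, 4.99 and 4.90 and then 4.44, 7.93 and 7.43) showed the same low replicate 1 and did not pass, with differences of 1.65, SE 0.63 for Myh4 (adjusted p = 0.115) and 1.56, SE 0.67 for Myh1 (adjusted p = 0.169). Without day 8 replicate 1 both were called (adjusted p = 0.000995 for Myh4 and 0.00383 for Myh1). Myh2 was not called (-0.31, SE 0.34).

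Of 16 genes of the neuromuscular synapse and of excitation-contraction coupling, 6 rose and 0 fell (median 0.42). Cacng1, the calcium channel gamma subunit gene, went from 4.47, 3.85 and 4.51 to 6.91, 7.50 and 7.17 (2.92, SE 0.34, adjusted p = 7.5e-06). Chrna1, which encodes the alpha subunit of the muscle acetylcholine receptor, went from 5.64, 7.51 and 7.13 to 9.27, 9.08 and 9.00 (2.35, SE 0.39, adjusted p = 0.000443), and Ryr1, the calcium release channel gene, rose too (1.52, SE 0.23). The receptor subunit gene Chrng of embryonic muscle rose less (1.25, SE 0.30, adjusted p = 0.00936), and without day 0 replicate 3 or day 8 replicate 2 it was not called (adjusted p up to 0.0609). Musk (-0.38, SE 0.33) and Rapsn (0.30, SE 0.31), which organise the synapse, were not called.

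**Figure D3:**
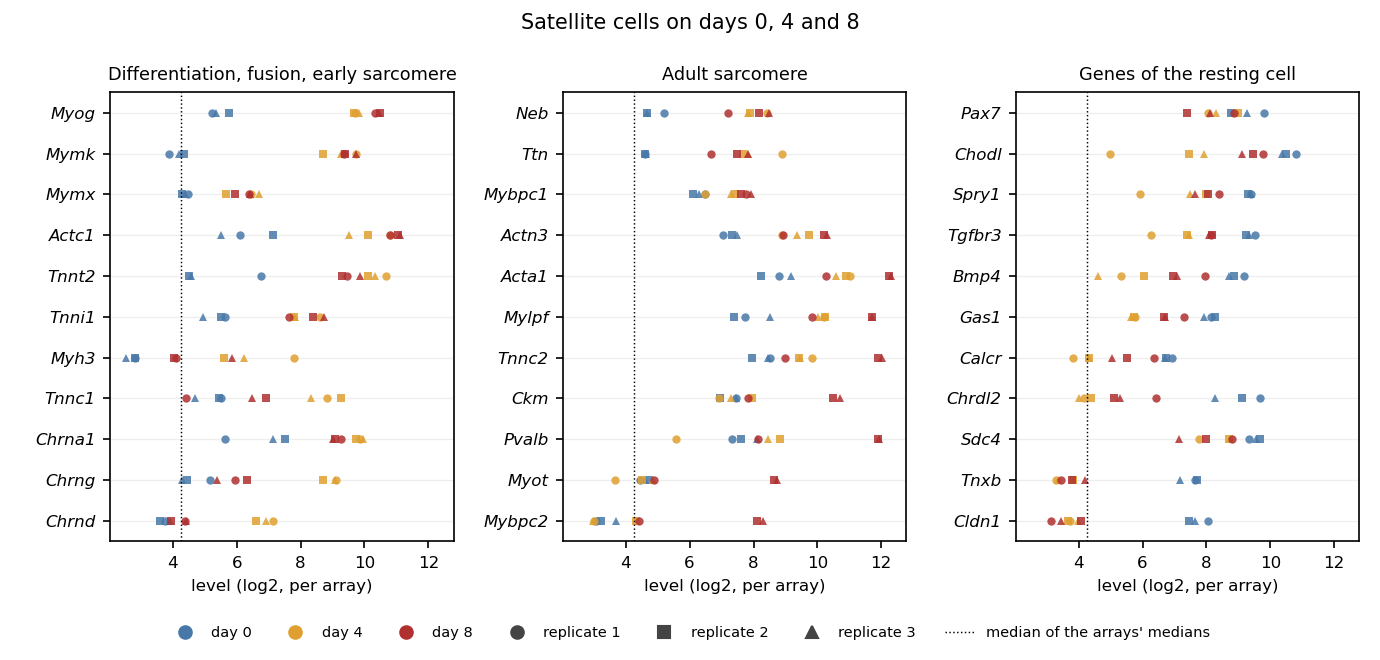
Log2 level per array (horizontal axes) of genes of differentiation and early sarcomeres (left), adult sarcomeres (middle) and the resting cell (right) in satellite cells of days 0, 4 and 8, with 3 arrays a day and a dotted line at the median of the arrays' medians. In the middle panel the red circle of day 8 replicate 1 stays near day 0 for Mybpc2, Myot, Pvalb and Ckm, while in the right panel Tnxb and Cldn1 are low on day 8 and Chodl and Calcr lie between days 4 and 0.

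Mitosis genes were the most uniform group. Of 35 tested, 32 rose and 0 fell (median 1.96), and in all 35 the 3 day 8 arrays lay above the 3 day 0 arrays. The arrays were so placed in 14.6% of all genes tested. The list averaged 4.03, 3.92 and 4.15 on day 0, near the array median, and 6.43, 6.15 and 6.35 on day 8. Top2a, the topoisomerase that untangles replicated chromosomes, went from 3.75, 3.66 and 4.02 to 7.84, 7.62 and 7.96 (3.99, SE 0.31, adjusted p = 3.91e-08). The cyclin gene Ccna2 went from 3.87, 4.35 and 4.92 to 8.45, 8.31 and 8.54 (4.05, SE 0.32), its kinase gene Cdk1 from 4.11, 4.14 and 3.97 to 7.95, 7.70 and 8.19 (3.87, SE 0.49) and the cytokinesis motor gene Kif23 from 2.78, 2.82 and 2.83 to 6.58, 5.86 and 6.28 (3.43, SE 0.34). Between 31 and 33 of the list rose when each of the 6 arrays was left out. No fold is given, since day 0 levels are at or below the array median.

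DNA replication genes rose in 18 of 32 cases and fell in 0 (median 1.31). Rrm2, which encodes a subunit of ribonucleotide reductase, went from 4.69, 3.82 and 4.48 to 7.43, 6.49 and 6.87 (2.60, SE 0.29, adjusted p = 4.59e-06), and the helicase subunit gene Mcm6 from 4.81, 5.94 and 5.18 to 8.00, 7.05 and 7.66 (2.26, SE 0.29, adjusted p = 3e-05). Replicate 1 was the highest day 8 array for 24 of the 32 genes, and without it 10 rose. The clamp gene Pcna, at 9.24, 9.83 and 9.31 before injury, was at 10.89, 10.43 and 10.49 on day 8 (1.14, SE 0.20, adjusted p = 0.000851), a rise that fell short of the minimum difference without day 8 replicate 1.

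The promoters of Top2a and Cdk1 are shown because promoters of mitotic genes are known for CCAAT boxes and for the cell cycle homology element TTTGAA, and these genes had the largest rises of the list among those with an entry in the RefSeq table, which has none for Ccna2, Mymk and Mymx. Each holds the 250 bases before the start (GRCm38.p6, minus strand, Top2a at chr11:99024190-99024439 and Cdk1 at chr10:69352913-69353162), 5′ to 3′ in the direction of the gene, with CCAAT or its reverse complement ATTGG and TTTGAA or its reverse complement TTCAAA in capitals.
Top2a: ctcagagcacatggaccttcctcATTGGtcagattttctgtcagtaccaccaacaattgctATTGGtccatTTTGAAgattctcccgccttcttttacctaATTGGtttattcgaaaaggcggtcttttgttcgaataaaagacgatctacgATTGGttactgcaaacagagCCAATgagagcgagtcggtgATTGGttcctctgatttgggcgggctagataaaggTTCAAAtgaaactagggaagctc
Cdk1: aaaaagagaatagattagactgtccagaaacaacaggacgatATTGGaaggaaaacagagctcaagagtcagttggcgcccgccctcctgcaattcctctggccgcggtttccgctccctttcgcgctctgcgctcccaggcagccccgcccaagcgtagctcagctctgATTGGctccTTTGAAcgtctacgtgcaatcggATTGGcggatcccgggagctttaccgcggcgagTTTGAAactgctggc
Top2a holds 6 CCAAT boxes and 2 TTTGAA elements, and Cdk1 holds 3 and 2. The TTTGAA element nearest the start lies 23 to 18 bases before it in Top2a and 15 to 10 bases before it in Cdk1. Of 31 windows of 29 mitosis genes, 24 hold CCAAT (77.4%) and 12 hold TTTGAA (38.7%), against 33.8% and 16% of all 32851 windows, searched on both strands. Kif23 holds 1 CCAAT box and 0 TTTGAA elements and rose by 3.43.

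The cell cycle inhibitor genes Cdkn1c and Cdkn1a rose beside these genes. Cdkn1c, which encodes the cyclin-dependent kinase inhibitor p57, went from 5.08, 5.81 and 5.23 to 8.38, 8.38 and 8.38, an 8.02-fold difference (3.00, SE 0.26, adjusted p = 1.69e-07). Cdkn1a, which encodes the inhibitor p21, went from 7.64, 7.38 and 7.03 to 9.74, 9.43 and 9.69 (2.27, SE 0.32, adjusted p = 7.84e-05). The retinoblastoma gene Rb1 (1.13, SE 0.25, adjusted p = 0.00474), its relative Rbl1 (1.27, SE 0.36, adjusted p = 0.0286) and the G1 kinase gene Cdk4 (1.28, SE 0.31, adjusted p = 0.0102) also rose. Cdkn1b, the p27 gene, did not reach the minimum difference of 1 (-0.88, SE 0.23, adjusted p = 0.0208). The other inhibitor genes of the list, Cdkn2a, Cdkn2b, Cdkn2c and Cdkn2d, were tested and not called. Of 15 genes of G1 control 5 rose and 0 fell, and 3 rose without day 0 replicate 1 or day 8 replicate 1. Cdk4 was not called without either replicate 1 (adjusted p up to 0.0723), Rb1 without day 0 replicate 1, and Rbl1 without any array but day 0 replicate 1 and day 8 replicate 2 (up to 0.141).

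Imprinted genes, of which cells use the copy from 1 parent, included several of the steadiest rises. Of 16 tested, 7 rose and 0 fell (median 1.07), Cdkn1c among them. H19, a noncoding RNA gene, went from 6.64, 6.58 and 7.08 to 9.50, 10.16 and 10.07 (3.14, SE 0.22, adjusted p = 1.04e-08), and Plagl1, which encodes a zinc finger factor, from 6.32, 6.12 and 5.98 to 9.49, 8.81 and 9.48 (3.12, SE 0.32, adjusted p = 2.16e-06). Igf2, the growth factor gene next to H19, went from 8.13, 8.24 and 7.58 to 9.77, 9.63 and 9.72 (1.72, SE 0.30, adjusted p = 0.000758). Mest (2.34, SE 0.42), Slc38a4, an amino acid transporter gene (1.93, SE 0.30), and Grb10, a brake on insulin receptor signalling (1.65, SE 0.34), rose too. Meg3 (0.31, SE 0.40) and Rian (1.10, SE 0.45), noncoding RNAs of another imprinted cluster, were not called. Between 7 and 8 of the list rose when each array was left out.

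Of 15 genes of the insulin-like growth factor system, Igf2 and Igfbp3, a binding protein gene (1.99, SE 0.40, adjusted p = 0.00245), rose and 2 fell. Igfbp6, which encodes a binding protein that prefers IGF2, went from 9.21, 7.94 and 8.78 to 5.78, 5.75 and 5.25 (-3.05, SE 0.39, adjusted p = 2.84e-05), and the adaptor gene Irs2 fell (-1.15, SE 0.35), a call lost without any array but day 8 replicate 1 (adjusted p up to 0.144). Igf1 was at 7.23, 6.46 and 6.93 and then 8.28, 7.09 and 7.91 and was not called (0.89, SE 0.28, adjusted p = 0.0508).

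Genes of the resting satellite cell were mostly lower on day 8. Of 21 tested, 0 rose and 6 fell, 20 had a mean below that of day 0, and the median was -0.88. Tnxb, which encodes the matrix glycoprotein tenascin X, went from 7.63, 7.69 and 7.17 to 3.45, 3.79 and 4.19 (-3.69, SE 0.23, adjusted p = 1.52e-09). Chrdl2, a BMP antagonist gene, went from 9.67, 9.11 and 8.27 to 6.43, 5.11 and 5.30, 10.6-fold lower (-3.40, SE 0.31, adjusted p = 3.02e-07). Gas1, a growth arrest gene, went from 8.13, 8.28 and 7.91 to 7.30, 6.69 and 6.71 (-1.21, SE 0.26, adjusted p = 0.00465), and Calcr, the calcitonin receptor gene that maintains quiescence, from 6.92, 6.75 and 6.72 to 6.36, 5.52 and 5.03 (-1.15, SE 0.33, adjusted p = 0.0283). Sdc4 (-1.55, SE 0.43) and Tgfbr3 (-1.23, SE 0.33) were the other falls. Calcr was called only with all 6 arrays or without day 8 replicate 1 (adjusted p up to 0.166), Tgfbr3 with all 6 or without day 0 replicate 2 (up to 0.0743), and Sdc4 with all 6 or without either replicate 1 (up to 0.154). The list count ran from 2 without day 0 replicate 3 (3 without day 0 replicate 1 or day 8 replicate 2 or 3) to 10 with quantile normalization repeated. Tnxb no longer passed the filter when any day 0 array was left out, so those counts lack it as an untested gene.

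Other genes of this list kept a high level. Vcam1 was at 9.23, 8.88 and 8.41 on day 0 and 8.94, 8.62 and 8.49 on day 8 (-0.16, SE 0.38), and the Notch target genes Heyl (10.43, 10.96 and 10.55 and then 10.06, 9.99 and 10.11) and Hes1 (9.45, 9.19 and 9.14 and then 9.24, 9.04 and 8.85) were not called (-0.59, SE 0.36 and -0.22, SE 0.36). Of 20 Notch pathway genes limma called 0 in either direction (5 at an unadjusted p under 0.05), with a median of 0.00, a value so near 0 that its sign turned with the scaling, and 1 was called without day 0 replicate 2 or day 8 replicate 3. The nearest was the ligand gene Dll1 (0.98, SE 0.30, adjusted p = 0.0498), at 4.80, 5.18 and 4.53 and then 6.21, 5.97 and 5.26. It passed the limit on p and fell short of the minimum difference. Missing either limit does not show that these levels are equal.

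In growth factor pathways single members were called, where over all genes tested 4.38% rose and 2% fell. Among 25 TGF-beta and BMP genes Tgfb1 rose, from 5.86, 5.81 and 5.21 to 7.50, 6.72 and 7.41 (1.59, SE 0.26, adjusted p = 0.000392), and Chrdl2, Chrdl1 (-2.14, SE 0.28) and Tgfbr3 fell. Without day 0 replicate 3 Chrdl2 kept its call, Tgfbr3 lost it and Chrdl1 was not tested. Chrdl1 passed the filter only through the day 0 satellite arrays, where it is high. Bmp4 was at 9.16, 8.85 and 8.70 and then 7.94, 6.95 and 7.08, with no overlap and an adjusted p of 0.0513 that was lower, at 0.0393, without day 8 replicate 1. Among 16 genes of the FGF and HGF pathways 3 rose. They were Gpc1, which encodes the coreceptor glypican 1 (6.43, 5.89 and 6.05 and then 8.22, 7.93 and 7.79, 1.86, SE 0.21, adjusted p = 6.56e-06), Met, the HGF receptor gene (6.02, 6.79 and 6.06 and then 8.66, 7.59 and 8.08, 1.82, SE 0.38, adjusted p = 0.00359), and the phosphatase gene Dusp6 (1.17, SE 0.21). These 3 were called without each of the 6 arrays, and the only fall was that of the coreceptor gene Sdc4. The 1 rise among 25 TGF-beta and BMP genes is close to the share of all genes and does not set that list apart. The 1 fall among 16 FGF and HGF genes rests on a single gene.

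Interstitial matrix genes changed in both directions. Of 38 genes 9 rose and 5 fell (median 0.40). Timp1, a metalloproteinase inhibitor gene, went from 3.29, 4.03 and 3.64 to 7.54, 7.60 and 6.69 (3.62, SE 0.31, adjusted p = 1.3e-07), and its relative Timp3 from 11.01, 11.09 and 11.17 to 9.14, 10.08 and 9.66 (-1.47, SE 0.33, adjusted p = 0.00612). Versican (Vcan, 2.73, SE 0.46), tenascin C (Tnc, 2.03, SE 0.38), fibronectin (Fn1, 2.04, SE 0.45) and type XII collagen (Col12a1, 2.22, SE 0.28) rose, as did the type I collagen genes Col1a1 (1.99, SE 0.42) and Col1a2 (1.61, SE 0.36). Tnxb, decorin (Dcn, -1.92, SE 0.50), Mfap5 (-2.39, SE 0.55) and the secreted signal gene Ccn2 (-1.55, SE 0.37) fell, Ccn2 not without day 8 replicate 3 (adjusted p = 0.0577).

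For Fn1 the arrays were at 7.43, 7.53 and 7.15 before injury and 9.29, 9.40 and 9.53 on day 8, with no overlap. Lum, the lumican gene, went from 3.31, 3.45 and 2.86 to 5.26, 6.83 and 6.79 (3.09, SE 0.48, adjusted p = 0.000208). Dcn, Mfap5 and Lum are also in the list of fibro-adipogenic markers given above, Lum and Dcn were lowest on day 8 replicate 1, and the share of those cells in these values was not tested. The call of Dcn was lost without day 0 replicate 3 or day 8 replicate 1 (adjusted p up to 0.111).

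In the basement membrane, 1 of 14 genes rose and 1 fell. Over all genes tested 4.38% rose and 2% fell, so these counts do not set the list apart. The laminin beta chains changed in opposite directions: Lamb1 went from 6.79, 7.13 and 7.22 to 8.37, 8.27 and 8.76 (1.42, SE 0.34, adjusted p = 0.00915) and Lamb2, the chain of the mature synapse, from 8.66, 9.05 and 9.05 to 7.48, 8.08 and 7.71 (-1.16, SE 0.28, adjusted p = 0.0106). Neither pair of groups overlapped. Without day 8 replicate 3 Lamb1 was not called (adjusted p = 0.0537), and without day 8 replicate 1 Lamb2 was not (adjusted p = 0.054).

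Metabolic genes moved less. Of 42 oxidative phosphorylation genes 2 rose and 0 fell (median 0.56), the muscle isoform gene Cox6a2 (6.35, 7.17 and 7.23 and then 7.70, 10.24 and 10.67, 2.62, SE 0.51, adjusted p = 0.00209) and Uqcrq (1.01, SE 0.19, adjusted p = 0.00123), which fell short of the minimum difference without day 0 replicate 1 or 2 or day 8 replicate 3. The count of 2 of 42 is close to the 4.38% called higher among all genes tested, so it does not set the list apart. Replicate 1 was lowest for 31 of the 42 on day 8, 1 was called without day 0 replicate 2 or day 8 replicate 3, 5 without day 0 replicate 3 or day 8 replicate 2, and 6 without day 8 replicate 1, and 12 had an adjusted p under 0.05 with no minimum difference. In glycolysis 2 of 15 rose, the muscle isoform genes Pgam2 (2.48, SE 0.51) and Eno3 (2.02, SE 0.46), which was not called without day 8 replicate 3 (adjusted p = 0.054), both again low on day 8 replicate 1 (5.90 against 8.45 and 8.91 for Pgam2). Slc2a1, the glucose transporter gene, went from 9.56, 9.42 and 9.47 to 7.89, 7.92 and 7.33 (-1.77, SE 0.23, adjusted p = 3.31e-05), and Ldhb, a lactate dehydrogenase gene, from 7.99, 8.72 and 8.57 to 6.68, 7.04 and 6.46 (-1.70, SE 0.27, adjusted p = 0.000254).

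Cholesterol synthesis genes had a median of -0.72 over 20 genes, of which Msmo1 fell (-1.76, SE 0.38, adjusted p = 0.00449) and 0 rose. With 2% of all genes tested called lower, 1 call among 20 does not set the list apart. In 11 of the 20 all day 8 arrays lay below day 0, against 11% of all genes tested. Ribosome biogenesis had 0 of 28 called in either direction by limma and 6, all higher, at an unadjusted p under 0.05 (median 0.35). Of 21 immediate early and stress genes, which digestion and sorting of cells can induce, only Nr4a1 was called, a fall (-1.08, SE 0.27, adjusted p = 0.0128) that was lost without day 8 replicate 3 (adjusted p = 0.0843). The immediate early genes were among the brightest on both days, with Fos at 11.45, 11.25 and 11.07 and then 11.24, 10.70 and 10.77.

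Some chemokine genes were higher on day 8. Of 22 chemokine and cytokine genes 6 rose and 2 fell (median 0.79). Cxcl2 went from 4.69, 4.44 and 2.68 to 7.41, 6.23 and 8.14 (3.33, SE 0.52, adjusted p = 0.000225) and Ccl2, which attracts monocytes, from 4.33, 5.17 and 4.93 to 7.37, 7.96 and 6.94 (2.61, SE 0.41, adjusted p = 0.000241). Ccl19 went from 10.60, 10.69 and 9.67 to 4.74, 9.29 and 7.06 (-3.28, SE 0.95, adjusted p = 0.0318), and was not called without any array but day 0 replicate 3 and day 8 replicate 2 (adjusted p up to 0.193), and Ccl11 fell (-2.13, SE 0.58, adjusted p = 0.0225). Without day 0 replicate 2 or day 8 replicate 1 neither fall was called. Of 20 interferon response genes 5 rose and 0 fell (median 0.76), with Cxcl10 (3.19, SE 0.34, adjusted p = 3.26e-06) and Iigp1 (3.19, SE 0.73) the largest, and 3 rose without day 8 replicate 3. The leukocyte markers given above rose in the same arrays, and their part in these values was not tested.

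**Figure D4:**
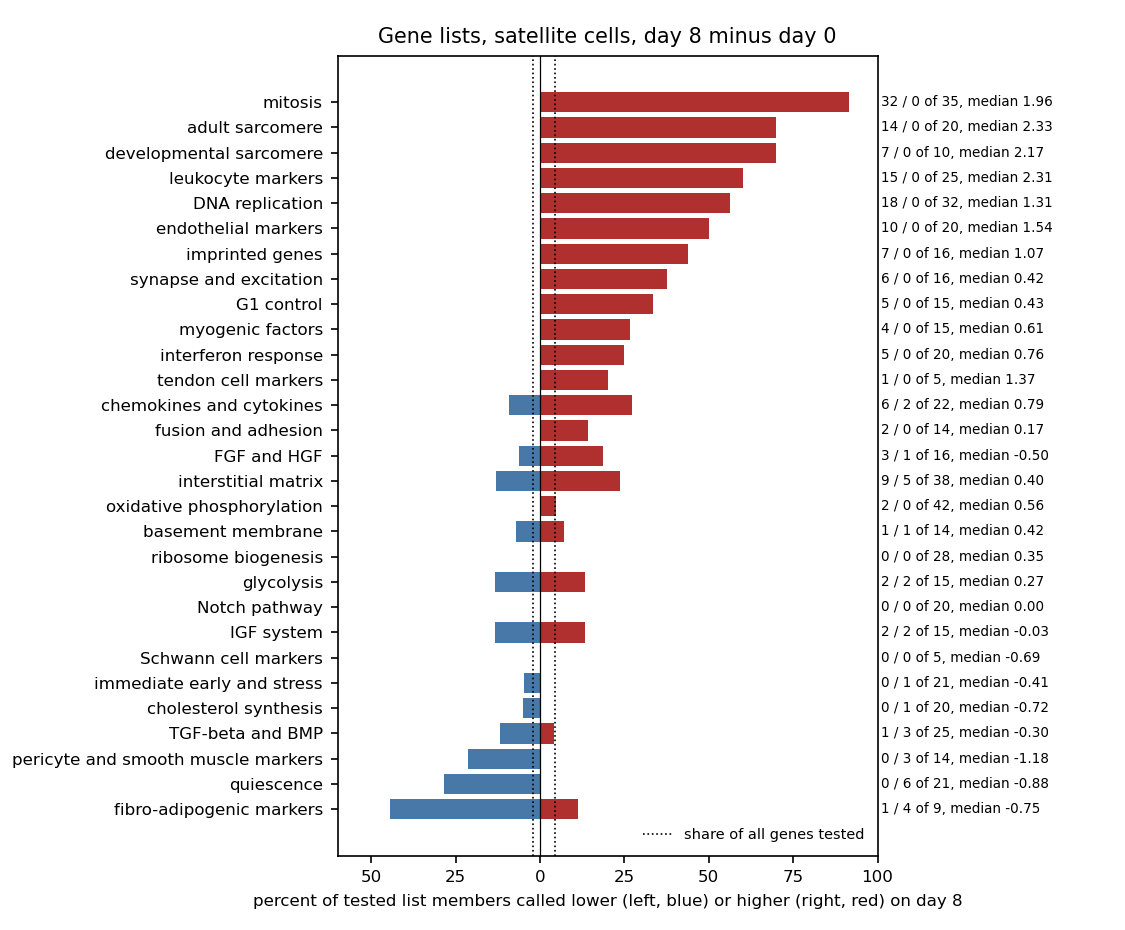
Percent of tested members (horizontal axis) called higher (red, right) or lower (blue, left) on day 8 than on day 0 for each gene list with at least 5 tested members (vertical axis), with counts and the median log2 difference at the right and dotted lines at the shares over all genes tested, 4.38% higher and 2% lower. Mitosis has the highest share called higher, 32 of 35, and fibro-adipogenic markers the highest share called lower, 4 of 9.

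Day 8 was then placed against day 4, a comparison without the day 0 arrays, in which 163 genes were higher on day 8 (1.16%) and 73 lower (0.519%). Mitosis genes averaged 6.34, 6.45 and 6.40 on day 4, overlapping day 8, and limma called 0 of 35 mitosis and 0 of 32 replication genes, with 3 and 2, all lower, at an unadjusted p under 0.05. Myog (0.69, SE 0.34, adjusted p = 0.407) and Mymk (0.25, SE 0.35, adjusted p = 0.83) were not called either. Of 10 developmental sarcomere genes 1 was higher on day 8 than on day 4, 2 were lower and 7 were not called (median -0.41), and of 16 synapse and excitation genes 0 were higher and 2 lower (median 0.09). The higher gene was Myl1 (2.18, SE 0.47), a call lost without day 4 replicate 1 or 3 or day 8 replicate 2 or 3 (adjusted p up to 0.117). Chrng, at 9.10, 8.69 and 9.07 on day 4, was at 5.93, 6.31 and 5.37 on day 8 (-3.08, SE 0.30, adjusted p = 6.16e-06), its partner subunit gene Chrnd went from 7.15, 6.61 and 6.92 to 4.39, 3.95 and 4.42 (-2.64, SE 0.25, adjusted p = 4.68e-06), and Tnnc1, the slow and cardiac troponin C gene, from 8.84, 9.26 and 8.31 to 4.42, 6.90 and 6.48 (-2.87, SE 0.51, adjusted p = 0.00351). R3hdml had the largest fall, from 7.40, 7.18 and 7.74 to 3.71, 3.40 and 4.34 (-3.63, SE 0.25, adjusted p = 2.87e-08), and the neuropeptide gene Gal (-2.92, SE 0.52) and Mir3109 (-2.88, SE 0.57) fell as well. Myh3 was also lower (-1.86, SE 0.45), though not called without any array but day 4 replicate 2 and day 8 replicate 3 (adjusted p up to 0.191).

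Genes of the resting cell and of mural cells were higher on day 8 than on day 4. Of the 21 quiescence genes 5 were higher and 0 lower. Chodl, the chondrolectin gene, went from 4.99, 7.46 and 7.91 to 9.76, 9.47 and 9.10 (2.66, SE 0.50, adjusted p = 0.00637), Calcr from 3.83, 4.32 and 4.33 to 6.36, 5.52 and 5.03 (1.48, SE 0.33, adjusted p = 0.0184) and Bmp4 from 5.31, 6.05 and 4.60 to 7.94, 6.95 and 7.08 (2.00, SE 0.50, adjusted p = 0.0413), with Chrdl2 (1.43, SE 0.31) and Gas1 (1.20, SE 0.26) the others. Each of these calls but that of Chodl was lost without day 4 replicate 1 or day 8 replicate 1, and that of Bmp4 without any array but day 4 replicate 2 (adjusted p up to 0.157). Tnxb (0.31, SE 0.23), Cldn1 (-0.24, SE 0.23) and Clmn (-0.15, SE 0.27) showed no such difference and stayed near or below the array median. For Tnxb and Cldn1 a level no higher than the median follows from how they passed the filter. Among the 14 mural cell markers, 7 were called higher and 0 lower, and the largest rises of all came from the olfactory receptor genes Olfr558 (5.48, 4.22 and 5.13 and then 8.12, 8.80 and 8.98, 3.69, SE 0.72, adjusted p = 0.00738) and Olfr78 (2.95, 2.77 and 2.72 and then 5.82, 6.79 and 6.67, 3.61, SE 0.38, adjusted p = 1.39e-05). Ano1, the calcium-activated chloride channel gene, followed (3.15, SE 0.55), as did the muscle genes Mybpc2 (3.51, SE 0.68) and Cox8b (3.30, SE 0.73), neither of which was called without day 8 replicate 2 or 3 (adjusted p up to 0.0667 and 0.129). Cox8b also lost its call without day 4 replicate 1 or 3. The noncoding RNA genes Rian (2.87, SE 0.45) and Meg3 (2.22, SE 0.40) were also higher. The count of 163 depends on single arrays: it was 280 without day 8 replicate 1, 68 without replicate 2, 83 without replicate 3 and 91 without day 4 replicate 1.

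The day 8 difference was finally compared between satellite and endothelial cells, by a test of the difference between their responses. The response of satellite cells was higher in 196 genes (1.39%) and lower in 114 (0.811%). With arrays centred on their medians the split was 259 and 85, with a shift of the median gene from 0.03 to 0.17, and with repeated quantile normalization it was 178 and 149. Cdkn1c had the largest positive difference (4.44, SE 0.37, adjusted p = 4.95e-07): in endothelial cells it was at 7.03, 7.25 and 7.01 on day 0 and 6.23, 5.22 and 5.54 on day 8, lower where satellite cells were higher. Ctla2a (4.21, SE 0.88, adjusted p = 0.0112), high in endothelial cells on both days, Mymk (4.03, SE 0.50, adjusted p = 8.95e-05), Snord35b (3.97, SE 0.99, adjusted p = 0.036) and Myot (3.68, SE 0.92, adjusted p = 0.0355) completed the 5 largest. For Snord35b, a small nucleolar RNA gene, it was the endothelial level that differed, at 9.77, 9.32 and 9.69 and then 6.04, 5.54 and 4.25. Cdkn1a, the other inhibitor gene that rose in satellite cells, had a smaller positive difference (3.12, SE 0.45, adjusted p = 0.000674), with overlapping endothelial levels of 8.87, 9.80 and 9.61 and then 9.17, 8.43 and 8.11.

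The largest negative differences were those of Cldn1 (-4.22, SE 0.32, adjusted p = 2.75e-07), Tnxb (-3.68, SE 0.32, adjusted p = 1.04e-06), Clmn (-3.63, SE 0.38, adjusted p = 1.18e-05), Mfap5 (-3.61, SE 0.78, adjusted p = 0.0146) and Chrdl2 (-3.52, SE 0.44, adjusted p = 8.95e-05). Cldn1 and Tnxb passed the filter only through the 3 satellite arrays of day 0. Their low endothelial levels were thus fixed in advance, and their p-values are no separate support. All 35 mitosis genes had a higher mean on day 8 in endothelial cells too, with a median difference of 1.50, and of the 35 only the condensin gene Smc2 was called, with a larger response in satellite cells (1.82, SE 0.44, adjusted p = 0.0327). Some muscle genes had larger responses in satellite cells, Myog (3.28, SE 0.49, adjusted p = 0.000724), Tnnt2 (3.20, SE 0.69, adjusted p = 0.0135), Neb (3.36, SE 0.40, adjusted p = 6.23e-05) and Ttn (3.17, SE 0.43, adjusted p = 0.000298) among them. Called higher were 6 of 20 adult and 2 of 10 developmental sarcomere genes, against 1.39% of all genes tested. For synapse and excitation it was 2 of 16, for myogenic factors 2 of 15 and for fusion and adhesion 2 of 14. In these lists 0 were called lower, and Actc1 was not called (2.46, SE 0.78, adjusted p = 0.11). On the endothelial arrays Myog was at 5.10, 4.85 and 4.76 on day 0 and 5.40, 7.00 and 7.39 on day 8, above day 0 on every array. The imprinted gene Mest went from 6.99, 7.03 and 6.42 to 10.41, 10.19 and 10.33 in endothelial cells, and its response was not called different (-1.16, SE 0.59, adjusted p = 0.37). The calls of Myot and Smc2 were lost on leaving out 11 and 7 of the 12 arrays in turn (adjusted p up to 0.105 and 0.0955), that of Snord35b on leaving out 9 (up to 0.113) and that of Mfap5 on none. The counts ran from 109 without endothelial day 8 replicate 3 to 260 without satellite day 8 replicate 1 for the higher responses.

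**Figure D5:**
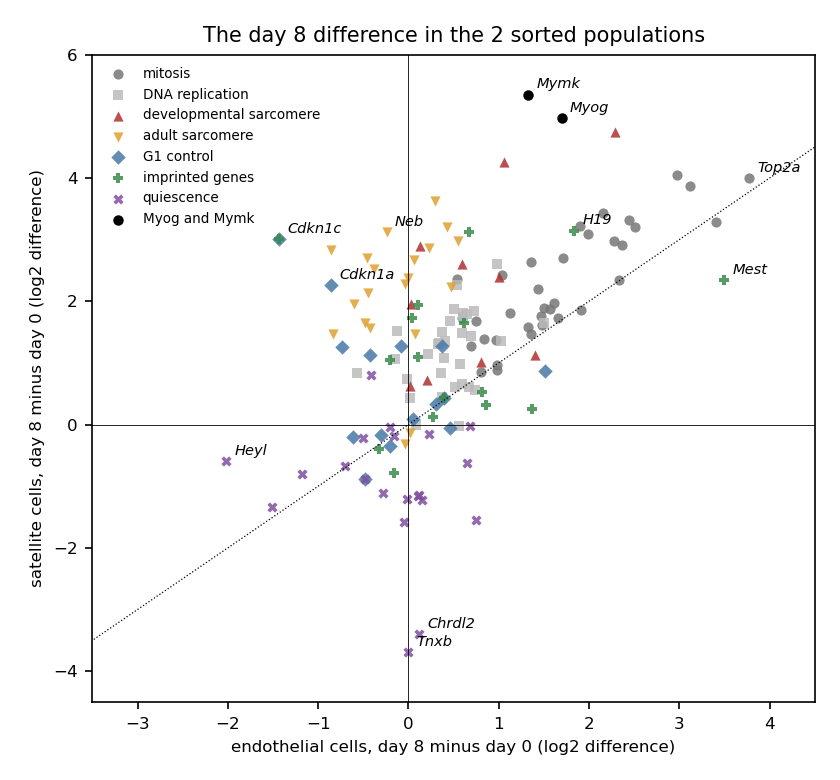
Log2 difference between day 8 and day 0 in endothelial cells (horizontal axis) and satellite cells (vertical axis) for the tested members of 7 gene lists and for Myog and Mymk, with each point the difference of 2 means of 3 arrays and a dotted line where the differences are equal. Mitosis genes lie on the positive side of either axis, adult sarcomere genes near 0 on the horizontal axis, and Cdkn1c and Cdkn1a rise in satellite cells and are lower in endothelial cells of day 8.

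MicroRNA genes are measured on these arrays through their hairpin or primary transcript, not through the mature RNA. Of 190 tested, 3 were called higher and 7 lower, against 4.38% higher and 2% lower among all genes tested. The share called higher was thus below that of all genes and the share called lower above it, both from few genes. Of the listed muscle microRNA genes only Mir486 passed the filter, and it was not called (0.03, SE 0.25). Mir23a went from 9.50, 7.01 and 5.73 to 4.77, 5.19 and 3.49 (-2.93, SE 0.83, adjusted p = 0.0282), and Mir27a, which was picked after its values were seen because it lies 79 bases from Mir23a on chromosome 8, from 8.34, 7.14 and 7.54 to 5.62, 4.88 and 5.81 (-2.24, SE 0.48, adjusted p = 0.00449). Mir24-2, 56 bases further on, was not called (-1.43, SE 0.61, adjusted p = 0.166). Mir99a on chromosome 16, also picked after its values were seen, went from 2.47, 2.25 and 5.70 to 6.96, 6.27 and 6.97 (3.26, SE 0.83, adjusted p = 0.0149), and day 0 replicate 3 stood near the day 8 arrays. The mature RNAs made from these genes, from RefSeq (GRCm38.p6), are shown because the seed, bases 2 to 8 in capitals, decides which targets a microRNA pairs with.
miR-23a-3p: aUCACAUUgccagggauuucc
miR-27a-3p: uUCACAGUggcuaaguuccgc
miR-99a-5p: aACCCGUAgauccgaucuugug
No seed is shared among the 3. The call of Mir23a was lost without day 0 replicate 1 or day 8 replicate 1 or 3 (adjusted p up to 0.184) and that of Mir99a without day 0 replicate 1 or 2 or day 8 replicate 3 (up to 0.0841), while Mir27a kept its call in each case (up to 0.0326).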

How the data were processed

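Gene expression was measured on 24 arrays (Affymetrix MoGene-2_0-st, per the labels) in 8 groups of 3. Per the labels' protocols, RNA was extracted with RNeasy Mini kits and biotinylated cDNA was made with Ovation PicoV2 from less than 1 ng of total RNA, an amplification that can add spread between arrays and distort low transcripts. The authors deposited log2 values per probe set made with RMA, per the submitters' processing notes, and no version or build is given in the sources used here. Of 24479 probe sets 23281 have a symbol in the platform table, 23156 of them with an identifier in the RefSeq gene table, and 1198 without a symbol were left out. A probe set was tested if its value exceeded the array median on at least 3 arrays, and the brightest represented a symbol, which left 14064 genes and 575 of 634 list entries, and list counts are over those. All 24 arrays were fitted in limma 3.58.1 (R 4.3.3) with 8 group means, 16 residual degrees of freedom and eBayes (prior degrees of freedom 4.75). Two-sided p-values of all 14064 genes were adjusted together (Benjamini-Hochberg). A fold is printed where both groups are at least 1 above the array medians. The fit was tested on simulated data.

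The genes named are 10 called higher and 10 called lower, taken by size among those whose groups do not overlap, without predicted genes (14 higher and 9 lower were passed over), 5 a side in the other comparisons, and members of 32 gene lists. The members, lists and rule were chosen with earlier results of these data known, so none of them is independent evidence. If animals were shared or pooled, p-values measure only the spread between these samples. Samples with the same title number correlated at 0.139, 0.109 and 0.025 in their deviations between the day 0 and day 8 groups, so the numbers were not taken as pairs.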

Additional observations from a re-analysis of the deposited data

Results flagged for a closer look

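The day 8 response differed between satellite and endothelial cells in 54 of the genes named in the text, by the limma test of the difference between the responses (adjusted p under 0.05, log2 difference of at least 1, 3 arrays in each group). Values in parentheses are the response of satellite cells minus that of endothelial cells. In 34 genes the response of satellite cells was higher. Muscle genes among them were Mymk (4.03), Myot (3.68), Neb (3.36), Myog (3.28), Tnnt2 (3.20), Ttn (3.17), Pgam2 (2.86), Tnni1 (2.76), Cacng1 (2.73), Rbm24 (1.76), Ryr1 (1.53) and Mymx (1.46). Genes of growth, division and imprinting were Cdkn1c (4.44), Cdkn1a (3.12), Plagl1 (2.45), Igfbp3 (2.14), Slc38a4 (1.83), Smc2 (1.82), Mcm6 (1.73), Igf2 (1.68), Gpc1 (1.67), Rrm2 (1.62), Tgfb1 (1.56), Rb1 (1.56) and H19 (1.31). The others were Ctla2a (4.21), Snord35b (3.97), Dcx (3.29), Cnr1 (3.21), Agtr2 (2.88), Aplnr (2.81), Mfap4 (2.46), Timp1 (2.10) and Col12a1 (1.88). In 20 genes it was lower, namely Slc2a1 (-1.35), Ldhb (-1.45), Igf1 (-1.59), Nr4a1 (-1.91), Sdc4 (-2.30), Chrdl1 (-2.47), Lypd2 (-2.78), Kcnma1 (-2.84), Hsd11b1 (-2.96), Cnn1 (-2.97), Sfrp5 (-3.00), Tshr (-3.12), Igfbp6 (-3.37), Slc7a8 (-3.48), Dcn (-3.50), Chrdl2 (-3.52), Mfap5 (-3.61), Clmn (-3.63), Tnxb (-3.68) and Cldn1 (-4.22).

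For several genes the endothelial mean moved little, by 0.05 for Cldn1, 0.04 for Lypd2 and -0.01 for Tnxb. For Cldn1 and Tnxb low endothelial levels follow from how they passed the filter. Dcn and Mfap5 were lower on day 8 in satellite cells and higher in endothelial cells (by 1.58 and 1.22). Leaving out each of the 12 arrays in turn, 21 of the 54 calls were lost at least once, with Aplnr, Cnn1, Igf1, Igf2, Igfbp3, Mymx, Myot and Rbm24 each lost with 10 or 11 of the arrays. Chrdl1, Cldn1, Sfrp5, Tnxb and Tshr were tested in only 9 of the 12 fits. They passed the filter through the satellite day 0 arrays alone and dropped out without any of these, which is not counted as a lost call.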

How the results depend on the processing

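The 2 counts of the day 8 and day 0 comparison kept within 1.5 times under all alternatives except that 164 genes were lower when only these 6 arrays were fitted. Leaving out single arrays gave 476 to 614 genes higher and 223 to 332 lower. Against day 4, array weights gave 287 higher and 125 lower, the 12 satellite arrays alone 53 and 28, and single arrays left out 68 to 280 and 41 to 88. For the difference between the populations, array weights gave 323 higher and 189 lower, and single arrays left out 109 to 260 and 73 to 113. The replicate block by title number gave 618 genes higher and 294 lower on day 8 than on day 0, the block by description number 635 and 290, and a random block of day and description number 619 and 282. For the difference between the populations the random block gave 224 higher and 136 lower, against 196 and 114. Its correlation within blocks was 0.0483. On days 2, 4 and 8 satellite and endothelial arrays of the same title number shared a description number, as they did for replicates 1 and 2 of day 0. Whether such arrays came from the same animals was not tested, nor was the cause of these differences. For the genes named in the text, 1905 of 1972 values under the alternatives that keep all arrays stayed on their side of the threshold for day 8 minus day 0, 335 of 360 for day 8 minus day 4 and 557 of 593 for the difference between the populations, and 0 values of called genes changed sign. Medians of the Notch and insulin-like growth factor lists, both near 0, changed sign with scaling. Levels near the array median carry little signal over background, and differences of such genes have no fold here.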

Other observations

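Genes outside the lists, picked after their values were seen, included those of a neuronal protein and of receptors for hormones and cannabinoids. Dcx, which encodes the microtubule protein doublecortin, was at 2.91, 3.17 and 3.23 on day 0, 5.00, 7.01 and 7.54 on day 4 and 6.92, 7.26 and 6.46 on day 8 (3.78, SE 0.42, adjusted p = 5.64e-06 for day 8 minus day 0, limma). Agtr2, a receptor gene of angiotensin, was at 2.70, 3.41 and 3.47, then 6.06, 6.53 and 5.97, then 7.14, 6.27 and 6.80 (3.54, SE 0.27, adjusted p = 3.91e-08). For these 2 genes days 4 and 8 overlapped and lay far above day 0. Cnr1, a cannabinoid receptor gene, was at 4.53, 3.94 and 4.76, then 5.48, 5.53 and 4.70, then 8.10, 6.66 and 8.52, and was higher on day 8 than on day 4 (2.53, SE 0.37, adjusted p = 0.000681) as well as day 0 (3.35, SE 0.37, adjusted p = 5.82e-06), with no day 8 array in the range of the earlier days.

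Among the lower genes, the amino acid transporter gene Slc7a8 went from 8.84, 8.55 and 8.33 to 6.16, 5.87 and 5.69 (-2.67, SE 0.50, adjusted p = 0.00129). The potassium channel gene Kcnma1 went from 6.18, 5.63 and 6.29 to 3.11, 2.64 and 4.35 (-2.66, SE 0.31, adjusted p = 8.19e-06), and Hsd11b1, which encodes the enzyme that regenerates active glucocorticoid, from 7.55, 8.11 and 7.63 to 5.51, 5.97 and 4.11 (-2.57, SE 0.36, adjusted p = 7.01e-05). Day 8 lay below day 0 on every array for these 3 genes. All 6 genes were below 5 on every endothelial array of days 0 and 8.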
